A study of Mus musculus with 36 samples.

Results

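The genes described here are 10 genes of cytokine and growth hormone signalling in skeletal muscle, namely Cish, Socs2, Socs3, Socs4, Socs7, Stat3, Stat5a, Stat5b, Ghr and Igf1. They were selected by gene symbol from a count table of 46893 features, and all 10 were found and passed the minimum mean count of 25 reads in every comparison. The selection was made with results of these data already known, so their differences between groups and HFD-C are given as a description, without p-values. The study asked how the distance run each day alters the muscle transcriptome of mice on a high-fat diet (HFD). Polyadenylated RNA of 1 gastrocnemius muscle per mouse was sequenced from 36 wild-type C57BL/6 males in 6 groups of 6, which entered the study at 3 to 4 weeks of age and were killed after 12 weeks. NFD-C mice were sedentary on the AIN93G diet, and HFD-C mice were sedentary on the HFD. The other 4 groups received the HFD and a running wheel with programmable brakes, and averaged 2.1 km/day (HFD-25%), 4.2 km/day (HFD-50%), 6.3 km/day (HFD-75%) or 8.3 km/day without restriction (HFD-U). Wheels are described for the running groups alone, so wheel access and distance cannot be told apart in comparisons with HFD-C.

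Growth hormone and many cytokines signal through receptors that carry Janus kinases. The kinases phosphorylate STAT proteins, which then enter the nucleus and switch on target genes. Among these targets are the CIS and SOCS proteins, which bind the receptor or its kinase and damp the signal, so that their mRNAs are widely used as a readout of recent STAT activity. Growth hormone acts through its receptor Ghr and mainly STAT5B, and Igf1 is a growth factor gene that this route switches on in liver and muscle. CIS (from Cish) and SOCS2 are classical feedback inhibitors of growth hormone receptor and STAT5 signalling. SOCS3 acts on receptors that use gp130, such as that of interleukin-6, which signal mainly through STAT3.

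STAT proteins bind a palindrome with a spacer of 3 bases, TTCNNNGAA, and it was searched in the RefSeq promoter windows (GRCm38.p6, 300 bases around each start, both strands), which covered 8 of the 10 genes with 11 windows. The motif was present in 2 of the 11 windows, those of Cish and Socs3, against 8.30% of all 32851 windows. The Cish window held it 2 times, and 0.457% of all windows held it 2 times or more. The variant with a spacer of 4 bases between the same ends was in none of the 11 windows and in 6.95% of all windows, and the motifs overlapped in none of the windows. The stretches around all matches in the windows of the members are printed, with each TTCNNNGAA match in capitals.
Cish, chr9:107296654-107296683, plus strand, 5 bases before to 25 after the start: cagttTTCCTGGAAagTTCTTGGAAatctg
Socs3, chr11:117969501-117969530, minus strand, bases -164 to -135 from the start: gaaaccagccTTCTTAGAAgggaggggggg
Both matches in Cish lay in an exon annotated as untranslated region, at bases 1 to 9 and 12 to 20 of the transcript. The match in Socs3 lay at bases -154 to -146, inside the annotated span of the gene but in no transcript of the basic annotation used. A match of letters is a description of the sequence and does not show that a STAT protein was bound.

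Libraries held 13060090 to 27981702 reads counted on genes. All groups had the profile of skeletal muscle, with 92050 to 166300 CPM, counts scaled to the library size, summed over 9 muscle markers. Markers of other cell types summed to lower levels, with 116 to 456 CPM for adipocytes and 13.9 to 38.3 CPM for immune cells, where Ly6g was 0 in all 36 libraries. Red cell markers summed to 119 to 407 CPM, endothelial markers to 110 to 382 CPM, fibro-adipogenic markers to 194 to 570 CPM and Schwann cell markers to 33.1 to 294 CPM. Libraries fell into 2 sets by the share of reads on 7 rRNA-linked features. It was 2.01 to 3.81% in all NFD-C mice and HFD-C mice 1 to 4, and 0.404 to 1.02% in HFD-C mice 5 and 6 and all 24 runners. The sets are almost the split between sedentary and running mice, so the comparisons with HFD-C are also given within 1 set. Because whole muscle was sequenced, fewer cells of a type and less RNA per cell cannot be told apart.

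On the deposited GRCm39 positions, the 10 genes lie on 5 chromosomes, and Stat5b (chr11:100671557-100741407), Stat5a (chr11:100750177-100775995) and Stat3 (chr11:100777632-100830447) are neighbours. Chromosome 11 also holds Socs7 (chr11:97253044-97289368) and Socs3 (chr11:117856905-117860192). Cish lies at chr9:107173858-107179983, Socs2 at chr10:95219765-95253176, Igf1 at chr10:87694127-87772909, Socs4 at chr14:47514377-47533559 and Ghr at chr15:3347237-3612834. The features overlapping Socs2, Stat3, Ghr and Igf1 on the other strand had mean levels of 0.142 to 0.999 CPM.

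Per gene length, Ghr and Stat5b were the most abundant of the 10 genes. Mean levels over the 36 mice in FPKM, which is CPM divided by the gene length in kilobases, were 31.2 for Ghr, 24.8 for Stat5b, 9.02 for Cish, 8.12 for Stat3 and 8.05 for Socs7. The other 5 genes were low, with 2.40 FPKM for Igf1, 1.94 for Stat5a, 1.44 for Socs4, 1.32 for Socs2 and 1.12 for Socs3. In this muscle Stat5b thus stood well above its neighbour and close relative Stat5a, although reads shared by such similar genes may be assigned to neither or to the wrong one. Spread between mice of 1 group ran from a log2 SD of 0.16 for Ghr to 0.87 for Cish and 0.82 for Socs3. Cish ranged from 5.42 to 101 CPM, 18.6-fold over the 36 mice, whereas Ghr varied 1.76-fold.

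The first comparison asked how the diet alters these genes in sedentary mice. Cish was the member with the largest difference and was higher on the AIN93G diet. The NFD-C mice had 49.7, 46.3, 83.3, 101, 96.8 and 34.1 CPM in mice 1 to 6. The HFD-C mice had 22.0, 17.4, 8.32, 20.8, 5.42 and 40.7 CPM. Of the 6 NFD-C mice, 5 lay above every HFD-C mouse, and the groups overlapped through HFD-C mouse 6 and NFD-C mouse 6. Means were 68.5 ± 28.6 (SD, n = 6) in NFD-C and 19.1 ± 12.5 CPM in HFD-C, a log2 fold change of 1.86 (standard error 0.40). In the quasi-likelihood test of edgeR, 504 of 12247 genes (4.12%) reached a p of 0.05 before adjustment, and Cish was the 1 member among them. The members were chosen with results of these data known, so this call is a description and not support. No gene passed an adjusted p of 0.05 in edgeR, and 2 did in DESeq2 (556 before adjustment), neither of them a member. In 0.229% of genes the CPM of the 2 groups did not overlap, and no member was among these. The fold change of Cish ran from 1.65 without HFD-C mouse 5 to 2.21 without HFD-C mouse 6, and was 2.01 with the HFD-C mice of the high rRNA-linked set alone. Slow-fibre genes summed to a median of 115 CPM in NFD-C (33.7 to 1897) and 1153 CPM in HFD-C (132 to 2285). Of 4 immune markers tested, Cd68 was lower in NFD-C before adjustment in edgeR, and 1 had a higher level there. The part of these genes in the difference was not tested.

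Socs2, the other classical growth hormone feedback gene, differed less between the diets. It had 17.2, 6.69, 27.8, 19.2, 16.4 and 12.7 CPM in the NFD-C mice and 8.71, 10.6, 15.9, 15.6, 8.94 and 11.02 CPM in the HFD-C mice. NFD-C mouse 2 was the lowest of all 12 mice and 4 NFD-C mice lay above every HFD-C mouse. The log2 fold change was 0.50 (standard error 0.27). Socs3 overlapped completely between the diets, at 1.81 to 6.46 CPM in NFD-C and 0.655 to 7.37 CPM in HFD-C. HFD-C mice 1 and 6 had 5.24 and 7.37 CPM of Socs3 while the other 4 had 2.12 CPM or less. Its log2 fold change was 0.41 with a standard error of 0.48, and its log2 SD was 0.73 in NFD-C and 1.24 in HFD-C.

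Socs4 and Socs7 encode SOCS proteins with long amino-terminal regions that are not established feedback genes of growth hormone. Their means were nearly equal on both diets, at 9.62 ± 2.21 and 9.77 ± 1.502 CPM for Socs4 and at 64.3 ± 19.9 and 60.8 ± 19.8 CPM for Socs7 in NFD-C and HFD-C. The log2 fold changes were -0.02 (standard error 0.17) and 0.09 (standard error 0.21).

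The ranges of the STAT genes overlapped between the diets. Stat5b, the main transducer of growth hormone, had the same mean of 218 CPM in both groups (SD 53.5 in NFD-C and 27.1 in HFD-C), with a log2 fold change of 0.00 (standard error 0.15). Stat3 had 37.2 ± 5.97 CPM in NFD-C and 41.7 ± 10.6 CPM in HFD-C, and Stat5a had 8.09 ± 1.34 and 9.68 ± 2.65 CPM. Their log2 fold changes were -0.16 (standard error 0.16) and -0.25 (standard error 0.18).

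Ghr, the growth hormone receptor, was at 141.5 ± 21.8 CPM in NFD-C and 143 ± 15.4 CPM in HFD-C. Igf1 had 33.3, 8.997, 29.6, 20.4, 16.9 and 22.1 CPM in the NFD-C mice and 16.9, 16.8, 21.5, 25.5, 15.8 and 8.38 CPM in the HFD-C mice. The Igf1 ranges overlapped, and 2 NFD-C mice lay above every HFD-C mouse. Log2 fold changes were -0.01 (standard error 0.11) for Ghr and 0.33 (standard error 0.28) for Igf1. With the HFD-C mice of the high rRNA-linked set alone they were -0.04 for Ghr and 0.12 for Igf1. Igf1 averaged 20.2 CPM in the HFD-C mice of the high set and 12.1 CPM in those of the low set. Among the 10 genes, Cish had the largest difference relative to its standard error, and the ranges of the diet groups overlapped for all 10 genes, Cish included.

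**Figure D1:**
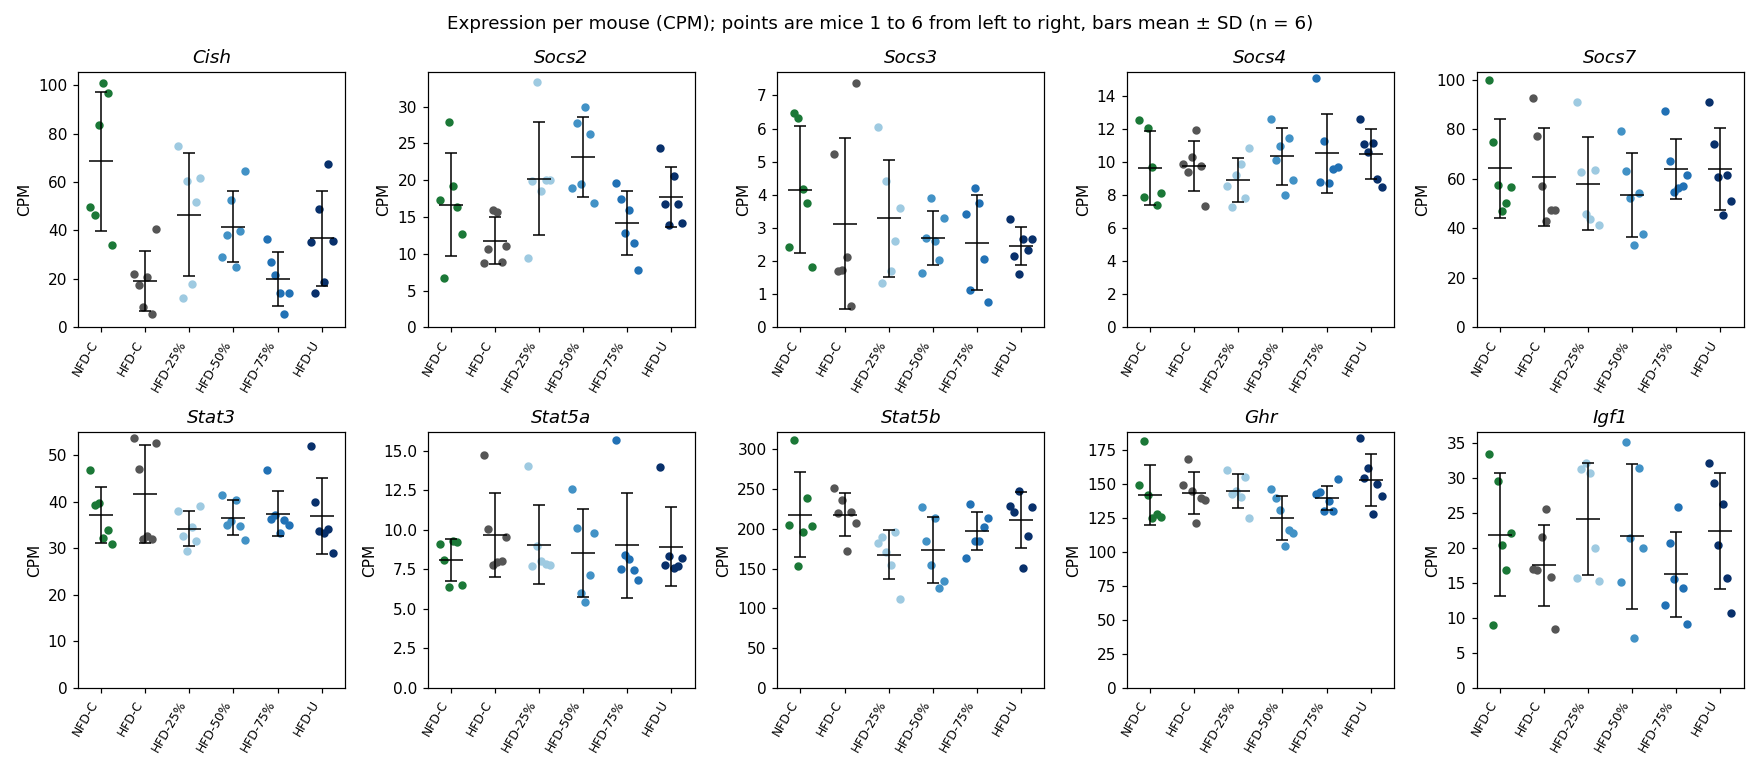
CPM of the 10 genes in each of the 36 mice (points, linear axis) by group, with bars at the group means ± SD. Cish lies between 34.1 and 101 CPM in NFD-C and between 5.42 and 40.7 CPM in HFD-C, while Ghr stays between 104 and 184 CPM in all groups.

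The second question was how the distance run changes these genes on the HFD. The 4 comparisons share the HFD-C mice with each other and with the diet comparison, so values stand side by side and no overlap between them is counted. Cish had 74.7, 12.3, 60.5, 18.0, 51.7 and 61.7 CPM in the HFD-25% mice, where 4 mice were above every HFD-C mouse and the other 2 were within the HFD-C range. In HFD-50% it had 29.2, 38.1, 52.5, 25.1, 39.9 and 64.7 CPM, all above the HFD-C mean. The HFD-75% mice had 36.7, 27.2, 21.7, 14.4, 5.67 and 14.04 CPM, all within the HFD-C range. The HFD-U mice had 35.1, 14.2, 49.0, 18.9, 67.6 and 35.9 CPM, with 2 mice above every HFD-C mouse. Group means descended from NFD-C (68.5 CPM) through HFD-25% (46.5 CPM), HFD-50% (41.6 CPM), HFD-U (36.8 CPM) and HFD-75% (19.9 CPM) to HFD-C (19.1 CPM). Ranges of all neighbours in this order overlapped, and the means did not follow the distance run. Log2 fold changes against HFD-C were 1.26 (standard error 0.47), 1.12 (0.38), 0.05 (0.44) and 0.94 (0.43) in order of distance.

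Socs2 was highest in HFD-50%. Its values there were 18.9, 27.8, 19.4, 29.9, 26.3 and 16.9 CPM, so that the lowest HFD-50% mouse (16.9 CPM) lay above the highest HFD-C mouse (15.9 CPM), and the groups did not overlap. Such separation from HFD-C was seen for 0.784% of all genes in HFD-50%, and for 0.352, 0.264 and 0.341% in the 25%, 75% and U groups, where no member had it. In HFD-25% it had 9.36, 19.8, 33.4, 18.6, 20.1 and 19.97 CPM, with 5 of 6 mice above every HFD-C mouse. The HFD-75% mice had 19.6, 17.4, 12.8, 15.95, 11.4 and 7.86 CPM and the HFD-U mice 24.4, 16.8, 13.9, 20.6, 16.7 and 14.2 CPM. Means descended from HFD-50% (23.2 ± 5.43 CPM) through HFD-25% (20.2 ± 7.67 CPM), HFD-U (17.8 ± 4.06 CPM), NFD-C (16.7 ± 7.02 CPM) and HFD-75% (14.2 ± 4.30 CPM) to HFD-C (11.8 ± 3.19 CPM), and again neighbours overlapped. The log2 fold changes were 0.76 (standard error 0.25), 0.97 (0.20), 0.25 (0.22) and 0.57 (0.19) in order of distance.

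Igf1 had means of 24.1 ± 8.02, 21.6 ± 10.3, 16.2 ± 6.11 and 22.4 ± 8.26 CPM in order of distance, against 17.5 ± 5.78 CPM in HFD-C. Its log2 fold changes were 0.45 (standard error 0.25), 0.30 (0.32), -0.12 (0.26) and 0.34 (0.26), so that HFD-75% was the group in which Cish, Socs2 and Igf1 were all lowest among the runners. The mean of Stat5b was below that of HFD-C in all 4 running groups, and farthest below in HFD-25% and HFD-50%. It had 182, 190, 171, 154, 196 and 112 CPM in HFD-25% and 227, 185, 155, 214, 125 and 135 CPM in HFD-50%, against 172 to 251 CPM in HFD-C. In each of these groups 3 mice lay below every HFD-C mouse. The log2 fold changes of Stat5b were -0.40 (standard error 0.14) and -0.33 (0.16), and -0.16 (0.12) and -0.06 (0.13) in HFD-75% and HFD-U.

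Remaining members differed little from HFD-C in the fits with all HFD-C mice. Stat3 had a lower mean than HFD-C in each running group, with log2 fold changes from -0.31 (standard error 0.15) in HFD-25% to -0.16 (0.15) in HFD-75%. The HFD-C mean of Stat3 was carried by mice 1, 2 and 6 with 53.7, 47.1 and 52.5 CPM, while the other 3 mice had 32.0 to 32.6 CPM. Ghr was at -0.21 (standard error 0.12) in HFD-50% and within 0.08 of 0 in the other 3 groups. Socs3 lay between -0.36 (0.44) in HFD-U and 0.05 (0.50) in HFD-25%, Socs4 between -0.15 (0.15) and 0.09 (0.16), Socs7 between -0.19 (0.22) and 0.06 (0.18), and Stat5a between -0.19 (0.22) and -0.12 (0.21). Without HFD-C mouse 6, Socs3 was at 0.49, 0.23, 0.13 and 0.08 in order of distance, so that its sign in the 3 longer-running groups turned with that mouse.

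**Figure D2:**
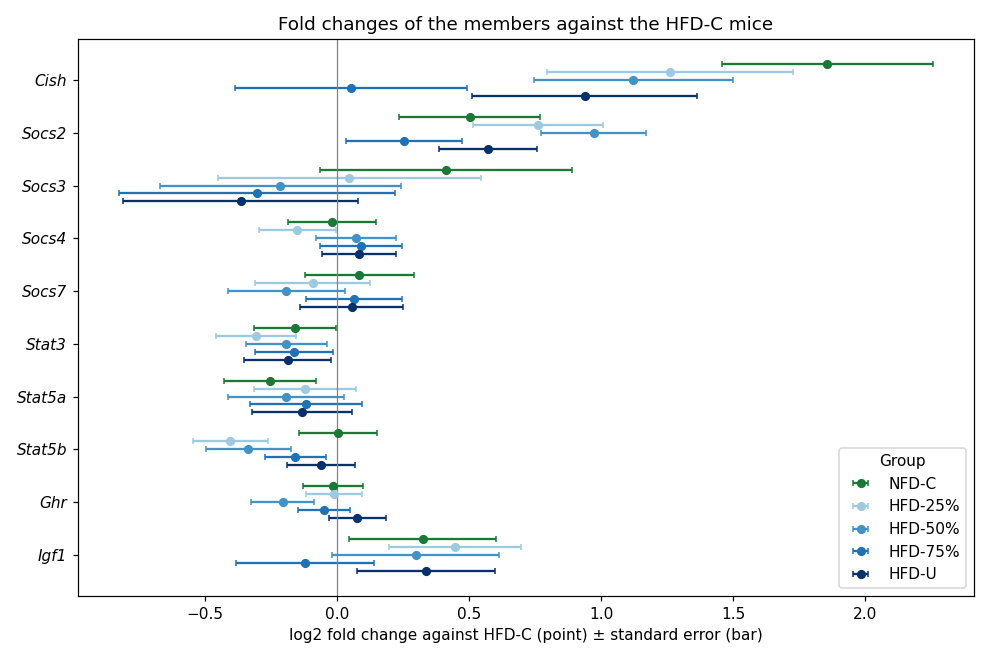
Log2 fold change of each gene against HFD-C (points) with its standard error (bars) for NFD-C and the 4 running groups, 6 mice per group. Cish is at 1.86 in NFD-C and at 0.05 in HFD-75%, and Socs2 reaches 0.97 in HFD-50%, while Socs4, Socs7 and Ghr stay near 0.

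With a p of 0.05 before adjustment in edgeR as the limit, the members counted were Cish, Socs2 and Stat5b in HFD-25%, where 6.98% of all genes tested were counted, and Cish and Socs2 in HFD-50% (10.7% of all genes) and HFD-U (5.46%). None was counted in HFD-75% (5.47%). No member passed the adjusted p in edgeR, where 1 gene of all did in HFD-25% (0.00820%) and none in the other 3 groups. DESeq2 gave 44, 160, 40 and 28 genes past the adjusted p in order of distance, with Socs2 among those of HFD-50%. The members were chosen with results of these data known, so these calls of members are a description and not support. The values above come from fits without a block for the mouse number. In HFD-U against HFD-C, deviations of same-numbered mice correlated above 0.1 in 6 of 6 pairs. With the block, this comparison gave 1232 genes before adjustment in place of 657 and 11 passed the adjusted p, while Cish stayed at 0.93 and Socs2 at 0.59. Markers of other cells had lower levels than HFD-C in some of these comparisons before adjustment in edgeR, among them 3 of 5 adipocyte markers tested in HFD-U (Adipoq, Cidec and Lep, median of the 5 at -1.84), 1 of 5 in HFD-25% (Lep), and 2 of 5 fibro-adipogenic markers (Col1a1 and Col3a1) in HFD-25% and HFD-75%, with Col1a1 also in HFD-50%. Also lower before adjustment in edgeR were, of 4 immune markers tested, Cd68 and Csf1r in HFD-75% and Cd68 in HFD-U. So were the red cell marker Hba-a2 in HFD-75% and HFD-U and the Schwann cell marker Prx in HFD-U. None of the 4 immune markers had a higher level than HFD-C in HFD-75% or HFD-U, while 3 of 5 red cell markers did in HFD-75%. Of the 5 adipocyte markers, 2 had higher levels in HFD-25% than in HFD-C. The summed adipocyte level had a median of 183 CPM in HFD-U and 233 CPM in HFD-25%, against 182 CPM in HFD-C. Of the 5 endothelial markers, Cdh5 was higher in HFD-25% and Vwf in HFD-50% before adjustment in edgeR. The part of these markers in the differences of the members was not tested.

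Within the low rRNA-linked set, which leaves HFD-C mice 5 and 6 as the sedentary mice, Cish had log2 fold changes of 0.997, 0.85, -0.22 and 0.66 in order of distance and Socs2 had 1.005, 1.21, 0.49 and 0.81. Igf1 was at 0.98, 0.82, 0.39 and 0.86 in this subset. Socs3 was at -0.29, -0.56, -0.66 and -0.72 there, and Socs7 at 0.27, 0.16, 0.41 and 0.40. The 2 sedentary mice were far apart for Cish (5.42 and 40.7 CPM) and for Socs3 (0.655 and 7.37 CPM), and these values rest on them. The part of the rRNA-linked share in the differences from HFD-C was not tested.

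The running groups hold no sedentary mouse and all lie in the low set, and were compared among themselves. Over the 24 runners, an F-test with 3 degrees of freedom gave unadjusted p-values of 0.0482 for Cish, 0.0329 for Socs2 and 0.0437 for Ghr, in a comparison where 7.27% of 11935 genes reached 0.05. After adjustment over all genes in edgeR these were 0.678, 0.627 and 0.670, and no member passed, as 3 genes of all did (0.0251%). For Stat5b and Igf1 the unadjusted p-values in the same edgeR fit were 0.131 and 0.334. A difference in these genes with the distance run was therefore not shown by this test.

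HFD-50% and HFD-U were compared as the pair of running groups with the most differences in earlier results of these data. Here 12.4% of 11851 genes reached a p of 0.05 before adjustment and 1 gene (0.00844%) after it. The pair and the members were chosen with results of these data known, so the p-values of members are a description and not support. Ghr had 146, 139, 131, 104, 116 and 113 CPM in HFD-50% and 184, 154, 161, 127, 150 and 141 CPM in HFD-U. Each HFD-50% mouse was below the HFD-U mean, and 3 were below every HFD-U mouse. The log2 fold change of Ghr was -0.29 (standard error 0.12, unadjusted p = 0.0262, adjusted p = 0.348 in edgeR), and that of Socs2 was 0.40 (standard error 0.17, unadjusted p = 0.0381, adjusted p = 0.381 in edgeR), with 5 of 6 HFD-50% mice above the HFD-U mean. Stat5b was at -0.28 (standard error 0.17) and Cish at 0.18 (0.33). Slow-fibre genes moved in the same comparison, with 6 of 7 (Atp2a2, Myh7, Myl3, Tnnc1, Tnni1 and Tnnt1) higher in HFD-50% at unadjusted p. Their summed level was 588 to 3885 CPM in HFD-50% and 145 to 1813 CPM in HFD-U, and their part in the differences of Ghr and Socs2 was not tested.

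How the members varied together within groups was examined on log2 CPM after the group means were removed, with mice permuted within groups (100000 resamples, two-sided, Benjamini-Hochberg over 45 pairs). Socs7 and Ghr varied together most closely. Pearson's r was 0.784 and Spearman's rho 0.856 over 36 mice, each with a permutation p of 1e-05, the smallest these resamples can give, and an adjusted p of 0.00045. The r of Socs7 and Ghr was 0.798 without the 2 mice farthest from the Socs7 median, 0.827 without the 6 mice numbered 1, 0.723 in the high rRNA-linked set and 0.836 in the low set.

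Another 6 pairs passed the adjusted p of 0.05 for r but not for rho. The share of correlated pairs among all genes was not determined, so none of the 7 pairs is shown to be particular to the members. Klhl9, picked as one of the genes most like Stat3, had r = 0.795 with it after the group means were removed. Cish and Socs3, the feedback genes with a promoter match of the STAT motif, had r = 0.581 (permutation p = 0.00168, adjusted p = 0.0151) and rho = 0.518 (permutation p = 0.00474, adjusted p = 0.0516). Their r was 0.579 without the 2 mice farthest from the Cish median, 0.523 in the high set and 0.597 in the low set, and 0.518 without the mice numbered 1, where the adjusted p was 0.0996. HFD-C mice 6 and 5 show the pattern, with the highest and the lowest value of that group for both genes. Socs2 and Igf1 had r = 0.508 (permutation p = 0.00261, adjusted p = 0.0168) and rho = 0.497 (permutation p = 0.00444, adjusted p = 0.0516), with r = 0.832 in the high set, 0.354 in the low set and 0.387 without the 2 mice farthest from the median, where it no longer passed. Cish and Socs2, which share a place in the growth hormone pathway, had r = 0.11.

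Stat5b and Ghr had r = 0.568 (permutation p = 0.00235, adjusted p = 0.0168) and rho = 0.509 (permutation p = 0.00573, adjusted p = 0.0516), with r = 0.477 without the 2 mice farthest from the median, where it no longer passed. The remaining 3 pairs, Socs7 with Stat5a (r = 0.634, rho = 0.428), Socs7 with Stat3 (r = 0.586, rho = 0.526) and Stat3 with Stat5a (r = 0.518, rho = 0.385), rested on the mice numbered 1. Permutation p-values of r were 0.0001, 0.00055 and 0.0016 and those of rho 0.0178, 0.00333 and 0.0282. Adjusted p-values were 0.00225, 0.00825 and 0.0151 for r and 0.0889, 0.0516 and 0.0977 for rho. Without these 6 mice r fell to 0.128, 0.215 and -0.0278.

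**Figure D3:**
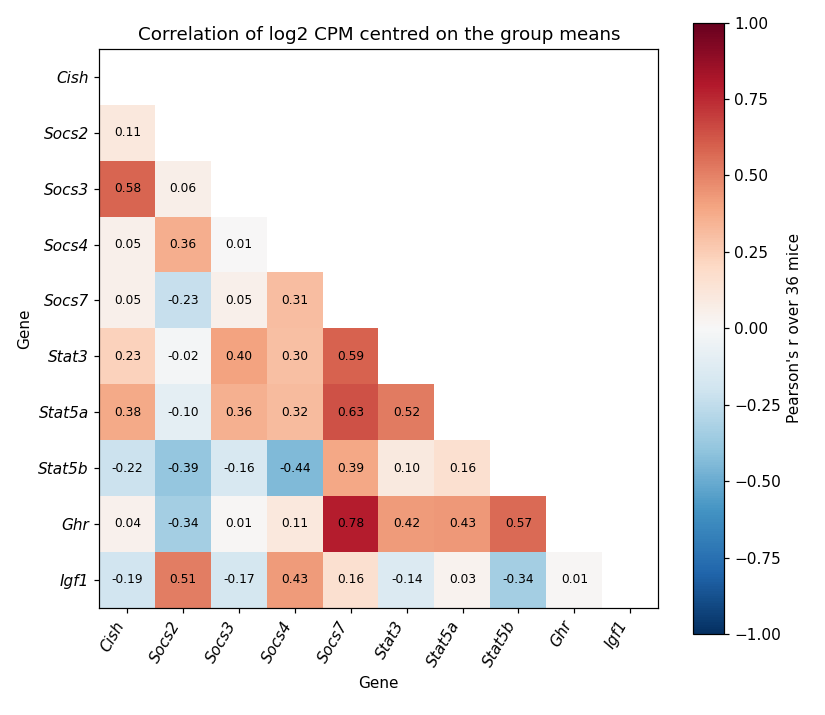
Pearson's r between the members' log2 CPM after removal of the group means, over 36 mice (colour scale from -1 to 1, value printed in each cell). Socs7 with Ghr reaches 0.78 and Cish with Socs3 0.58, while Cish with Socs2 is 0.11.

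Mouse 1 was the highest of its group for Socs7 in 6 of 6 groups, at 79.3 to 99.8 CPM. It was also the highest in 5 groups for Stat3 and Stat5a, and in 4 for Socs4. This was not particular to these genes, since 602 of 12053 genes (4.99%) had mouse 1 highest in all 6 groups. The labels give no meaning to the numbers, and what the mice numbered 1 share was not tested.

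**Figure D4:**
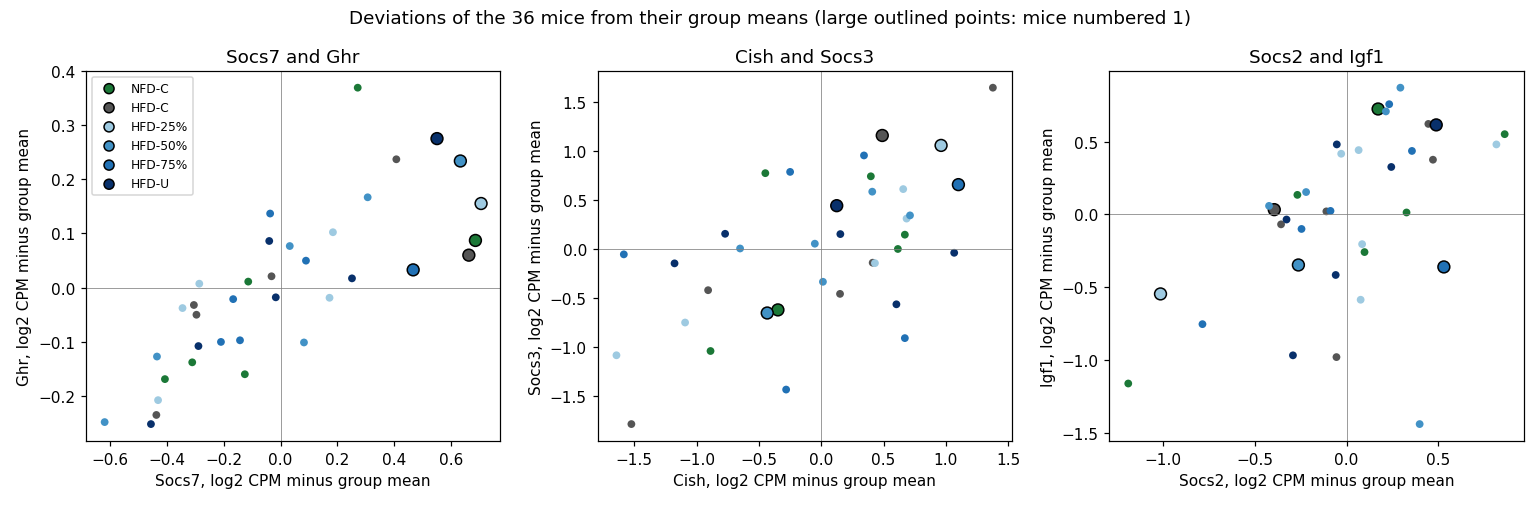
Log2 CPM minus the group mean for Socs7 and Ghr, Cish and Socs3, and Socs2 and Igf1, with 1 point per mouse (36 mice) and colours for the 6 groups. Large outlined points are the mice numbered 1. Mice with more Socs7 had more Ghr (r = 0.784 after the group means are removed), and the scatter is wider for Cish with Socs3 (0.581) and Socs2 with Igf1 (0.508).

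Other genes of the pathway were described with 75 genes in 7 lists, Janus kinases, other STATs, other SOCS genes, PIAS proteins and phosphatases, cytokine receptors, GH and IGF axis, and STAT targets. None passed the adjusted p in edgeR in any of the 7 comparisons. At unadjusted p, 1 was higher and 1 lower of 65 tested in NFD-C against HFD-C, namely Irs1 and Lepr, beside 4.12% of all genes. Against HFD-C, 3 were higher and 2 lower of 65 in HFD-25% (6.98% of all genes in either direction), 9 and 5 of 65 in HFD-50% (10.7%), 4 and 1 of 63 in HFD-75% (5.47%), and 0 and 1 of 63 in HFD-U (5.46%). In HFD-50% against HFD-U 8 were higher and 1 lower of 62 (12.4% of all genes), and 7 of 63 reached that limit over the running groups (7.27%). Median log2 fold changes of the 75 genes lay between -0.01 and 0.09 in all 6 pairwise comparisons, beside medians of -0.01 to 0.02 over all genes.

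The most abundant gene of each list per length was Jak1, a kinase of many cytokine receptors (27.4 ± 6.18 FPKM, SD over 36 mice), Stat6, the transducer of interleukin-4 (5.04 ± 0.796 FPKM), Socs6 (4.87 ± 0.774 FPKM), the phosphatase Dusp3 (23.9 ± 3.60 FPKM), the interferon gamma receptor chain Ifngr2 (22.0 ± 3.72 FPKM), the IGF binding protein Igfbp5 (58.8 ± 19.1 FPKM) and the transcription factor Cebpb (98.4 ± 21.2 FPKM). Their log2 fold changes in NFD-C against HFD-C lay between -0.03 (Socs6, standard error 0.14) and 0.29 (Igfbp5, 0.23). In HFD-50% against HFD-C, Dusp3 was at -0.35 (standard error 0.14, unadjusted p = 0.0216, adjusted p = 0.377 in edgeR) and Ifngr2 at -0.38 (0.15, unadjusted p = 0.0197, adjusted p = 0.370 in edgeR). Jak1 was at -0.08 (0.17) and Cebpb at 0.13 (0.18) there.

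Some other genes were noted after their values were seen. Irs1, an adaptor of insulin and IGF receptors, was at 0.40 (standard error 0.18) in NFD-C against HFD-C and at -0.40 (0.18), -0.38 (0.15), -0.56 (0.18) and -0.28 (0.16) in the running groups in order of distance, all against the same HFD-C mice. Il6ra, the interleukin-6 receptor, was at 1.53 (standard error 0.54) in HFD-50% against HFD-U, and Osmr, the oncostatin M receptor, at 0.68 (0.24). Pim1, a kinase gene switched on by STATs, was at 0.998 (standard error 0.23, unadjusted p = 0.000692, adjusted p = 0.186 in edgeR), and Cdkn1a, a cell cycle inhibitor gene, was at 1.49 (0.50) in this comparison.

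Genes with the pattern most like that of Cish over the 36 libraries, among 12053 genes, included Cited2 (r = 0.686, and 0.603 with group means removed) and Socs3 (0.602 and 0.581). For Socs3 they were Wipf2 (0.6249 and 0.595), Armcx4 (0.619 and 0.638) and Tlcd5 (0.613 and 0.617), and for Igf1 Ace (0.753 and 0.739), Cxcl14 (0.683 and 0.733) and Plau (0.665 and 0.696). For Stat3 they were A330074K22Rik (0.753 and 0.737), Xpo4 (0.752 and 0.790) and Klhl9 (0.751 and 0.795). These are descriptions over libraries that share depth, set and mouse number, chosen as the highest of all genes.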

How the data were processed

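Gastrocnemius RNA of 36 mice was analysed. The authors deposited whole-number counts per gene and library, without normalization, and gene positions and lengths. The submitters' processing notes name HISAT2 2.0.5, StringTie 1.3.3b, featureCounts 1.5.0-p3, DESeq2 1.20.0, edgeR 3.22.5 and mm10, but the chromosome accessions beside the counts are those of GRCm39, the build of the file. Strand use in counting is not given in the sources used here. No sample column was left out (0). Among the features, 562 have no symbol (0.151 to 0.576% of counts) and were kept.

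Counts were fitted in R 4.3.3 with edgeR 4.0.16 (TMM, genes averaging 25 or more counts in the libraries compared, quasi-likelihood F-test, Benjamini-Hochberg over all genes), each pair of groups alone. DESeq2 1.42.0 and limma 3.58.1 served alternatives and helper functions. CPM used TMM-scaled library sizes, with a prior count of 0.5 on the log2 scale, and FPKM the deposited lengths. The fits were tested on simulated data.

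The members and the gene lists were chosen with earlier results of these data known. For the members no p is given against HFD-C. The text names the 10 members, the gene with the highest mean FPKM of each list, list genes past an adjusted p, and the 3 genes most like Cish, Socs3, Igf1 and Stat3 by r. One gene that this rule names is not reported here. No list gene passed an adjusted p, and Irs1, Lepr, Il6ra, Osmr, Pim1, Cdkn1a and the marker genes with their calls were named after their values were seen. Replicates of a group differed by 14.7 to 181 times sampling variance (chi-square per degree of freedom), so none was a duplicate. Deviations of same-numbered mice correlated above 0.1 in 6 of 6 pairs in HFD-U against HFD-C (0.120 to 0.507) and in 1 to 5 pairs elsewhere, and labels do not explain the numbers. The alternatives were DESeq2, RLE factors, no minimum count, the block, an rRNA-linked covariate, 1 rRNA-linked set, a single fit of all libraries, distance terms, and leaving out mice.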

Additional observations from a re-analysis of the deposited data

Results flagged for a closer look

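In each group of 6 mice, the highest and lowest CPM of every member was compared with the nearest other mouse by Dixon's ratio. Of 60 groups 5 were marked, and chance marks about 1 in 20 groups. All 5 were mice numbered 1 with the highest value of their group. For Stat5a these were HFD-C mouse 1 with 14.74 CPM (gap of 0.673 of the group's range), HFD-25% mouse 1 with 14.04 CPM (0.802), HFD-75% mouse 1 with 15.68 CPM (0.819) and HFD-U mouse 1 with 14 CPM (0.878). For Stat3 it was HFD-75% mouse 1 with 46.78 CPM (0.712).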

How the results depend on the processing

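Of 1180 fold changes of the members under the alternatives, 94 had the opposite sign to the reported value, 61 of them with 1 mouse left out and 11 each with the rRNA-linked covariate and within 1 rRNA-linked set. In 5 of these the reported value was beyond 0.2 on the log2 scale, all for Socs3, in HFD-50%, HFD-75% and HFD-U against HFD-C. Neither DESeq2 nor RLE factors turned a sign. Counts before adjustment, in the order of NFD-C and the running groups by distance against HFD-C, then HFD-50% against HFD-U and the running groups among themselves, were 2240, 2415, 2922, 2157, 2251, 2844 and 2668 without a minimum count. An rRNA-linked covariate gave 864 for NFD-C and 1617, 1020 and 1490 for the 25%, 75% and U groups, and the use of 1 rRNA-linked set gave 1403, 1069 and 1390 for these running groups. Counts past the adjusted p in the order above were 2, 44, 160, 40, 28, 102 and 50 in DESeq2, and 16, 53, 8, 9, 25 and 10 in HFD-25% and the comparisons after it without a minimum count. A single fit of all 36 libraries gave 13, 154, 8, 7 and 51 in HFD-25% to HFD-50% against HFD-U, and the rRNA-linked covariate gave 1 in NFD-C and 0 in HFD-25%. For the running groups RLE factors gave 5, linear and quadratic terms 5, and removal of the mice numbered 1 gave 0. Leaving out each mouse in turn gave 377 to 784, 629 to 1083, 1026 to 1644, 514 to 807, 527 to 829, 1010 to 2070 and 649 to 1222 genes before adjustment in the order above, and 0 to 0, 1 to 6, 0 to 8, 0 to 11, 0 to 8, 0 to 4 and 0 to 8 past it. The cause was not tested.

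With the mouse number as a replicate block, 850 genes in NFD-C, 1232 in HFD-U and 1478 over the running groups were counted before adjustment, and 0, 50, 1, 11, 26 and 9 passed the adjusted p in HFD-25% and the comparisons after it. Same-numbered mice correlated above 0.1 in all 6 pairs in HFD-U against HFD-C alone, although the mice numbered 1 correlated in every comparison (0.31 to 0.56). The block turned 3 signs, those of Socs3 in HFD-50% against HFD-C (-0.21 to 0.11), Stat5b in NFD-C against HFD-C (0.00 to -0.02) and Stat3 in HFD-50% against HFD-U (-0.01 to 0.01).

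In HFD-50% against HFD-U, members with log2 fold changes near 0 changed sign. Stat3 was at -0.01, at 0.008191 with the block and 0.068 without the mice numbered 1, and between -0.073 and 0.10 with each mouse left out. Igf1 was at -0.04, at 0.165 without the mice numbered 1 and between -0.23 and 0.14 with each mouse left out. With 1 mouse left out, Socs4 lay between -0.074 and 0.047 and Stat5a between -0.21 and 0.098. Against HFD-C, Igf1 in HFD-25% was at 0.98 within 1 rRNA-linked set, and with the rRNA-linked covariate Socs7 was at 0.43 (HFD-75%) and 0.47 (HFD-U).

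Of the correlated pairs, 7 passed the adjusted p with all mice. The numbers were 2 without the mice numbered 1 (Socs7 with Ghr, and Socs4 with Stat5b at r = -0.617), 0 in the high set of 10 mice, 2 in the low set of 26 mice (Socs7 with Ghr and Socs7 with Stat5a) and 4 without the 2 mice farthest from the median. Stat3 with Stat5a turned to -0.0278 without the mice numbered 1. Subsets hold fewer mice.

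Socs3 had the lowest counts, 11 to 147 reads per library, and a log2 SD within groups of 0.82, close to that of Cish (0.87). The p-values of the fits judge differences between groups against the spread between mice, each of which gave 1 library.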
